A study of Mus musculus with 4 samples.

Results

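The human mast cells found among the immune cells of breast tumors in humanized mice are described here. A cell was taken as a mast cell when it held at least 10 UMIs (unique molecular identifiers, each standing for 1 captured transcript) of TPSAB1, TPSB2 and CPA3 together and at least 1 UMI of KIT, HDC or MS4A2. It could hold no more than 1 UMI of CD3D, CD3G and TRAC, and no more than 3 UMIs of C1QA and C1QB. Of the 37806 barcodes with more than 600 and up to 6000 detected genes and a limited mitochondrial share (hereafter kept cells), 199 met this rule. They were 129 of 27645 kept cells in reaction 1 (0.467%, exact binomial 95% interval 0.390 to 0.554) and 70 of 10161 in reaction 2 (0.689%, 0.537 to 0.870). All intervals given for levels and shares cover counting error only.

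The cells came from MISTRG mice, an immunodeficient strain in which human versions of cytokines such as IL-3, GM-CSF and M-CSF allow human blood cells of myeloid type to form. The mice had been irradiated as newborns and engrafted with CD34+ cells from human fetal liver, and every mouse bore a tumor grown from MDA-MB-231, a human triple-negative breast cancer line, in the mammary fat pad. From day 21 after tumor cell injection 7 mice received maraviroc, an approved small-molecule drug, in the drinking water for 10 days, and 7 mice were left untreated. Tumors were taken on day 31, mononuclear cells were enriched on a density gradient, and live human CD45+ cells were sorted and pooled after each mouse was marked with an antibody-borne oligonucleotide tag (hashtag). The age of the mice at tumor injection and their sex were not given in the sources used here. The deposited labels name the mouse as organism, whereas the genes counted were human. Reaction 1 held the cells of 4 untreated and 3 maraviroc mice, and reaction 2 those of 3 untreated and 4 maraviroc mice, as the hashtag names gave them. These animals limit the model in that the human cells met mouse tissue, and in that 1 tumor line was used. Any loss of mast cells, which are dense with granules, on the gradient was not measured.

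Mast cells develop from bone marrow progenitors under KIT signaling and settle in tissues, where they carry the high-affinity IgE receptor. Their granules store tryptases, carboxypeptidase A3, histamine and heparin, and, in the connective tissue type, chymase and cathepsin G. On activation they release the granules, form prostaglandin D2 and leukotriene C4, and secrete cytokines, and they are commonly found in human breast and other tumors.

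The depth differed between the reactions. The mast cells of reaction 1 had a median of 2279 UMIs and those of reaction 2 a median of 5557, below the medians of all kept cells (2752 and 10742). A hashtag call was taken as clear where 1 hashtag held at least 60% of a cell's hashtag UMIs. All 70 mast cells of reaction 2 had a clear hashtag, but only 66 of the 129 in reaction 1 did. This went with the reaction as a whole. Among all kept cells, 7361 of 27645 (26.6%) in reaction 1 and 8966 of 10161 (88.2%) in reaction 2 had a clear hashtag. The mast cell shares given above for each reaction include the cells without one, so they should not be compared between the reactions. Across the reactions 136 barcodes were shared by sequence, and 1 of the mast cell barcodes recurred in the other reaction, where it was not a mast cell.

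The 63 reaction 1 members without a clear hashtag were less clean. Their level of SPP1, the osteopontin gene that macrophages in these tumors transcribed heavily, was 7031 CPM (UMIs of the gene per 1000000 UMIs), against 2093 in members with a clear hashtag and 159 in reaction 2. Of the 429 SPP1 UMIs in reaction 1 members with a clear hashtag, 380 came from maraviroc mouse 1, and the level was 305 CPM in the 54 members from the other mice. GNLY, a cytotoxic granule gene of NK cells, stood at 2289 CPM in the members without a clear hashtag. It was at 19.5 CPM in reaction 1 members with one and at 34.3 CPM in reaction 2. For whole marker lists, the 10 macrophage genes summed to 8526 CPM in cells without a clear hashtag, 2630 CPM in cells with one and 452 CPM in reaction 2, with SPP1 the most abundant each time. Without maraviroc mouse 1, the 2630 CPM became 758 CPM. The 6 NK genes summed to 2727, 87.8 and 74.7 CPM, the 8 T cell genes to 372, 112 and 76.7 CPM, and the 7 monocyte genes to 2519, 444 and 960 CPM. TPSAB1 went the other way, at 3132, 8465 and 5702 CPM. The part of RNA from other cells in these values was not tested, and no doublet caller was run. Unless all members are named, the levels below are therefore those of the 136 members with a clear hashtag, given for reaction 1 and then for reaction 2, and were set against the 16191 other kept cells with a clear hashtag.

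The edge of the rule, read over all members whatever their hashtag, lay in reaction 1. There 297 cells held at least 10 protease UMIs, of which 121 failed on the C1Q limit, 29 on the T cell limit and 18 for want of KIT, HDC and MS4A2. In reaction 2 the corresponding numbers were 83, 10, 3 and 0. Just outside were 48 reaction 1 cells with 5 to 9 protease UMIs, which had 2399 CPM of CTSG and 8803 CPM of SPP1. Just inside were 29 reaction 1 members with 10 to 14 protease UMIs, with 3960 and 9660 CPM. Of these 29, the 24 without a clear hashtag had 10519 CPM of SPP1 and the 5 with one had 951 CPM. In reaction 2 only 1 member had 10 to 14 protease UMIs and no cell lay just outside.

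Of the markers that named the cells, TPSAB1, TPSB2, CPA3, KIT and HDC were part of the rule, so their levels are a description of what was selected. TPSAB1, the main mast cell tryptase, reached 8465 CPM in reaction 1 (exact Poisson 95% interval 8072 to 8873) and 5702 CPM in reaction 2 (5494 to 5916). TPSB2, its near-identical neighbor, was lower at 2518 and 1620.2 CPM, a split that is uncertain because reads can fit both genes. CPA3, which encodes the granule carboxypeptidase, was at 5904 and 5583 CPM. KIT, the stem cell factor receptor, reached 673 and 876 CPM, HDC, the enzyme that makes histamine, 609.9 and 878 CPM, and MS4A2, the beta chain of the IgE receptor, 751 and 1071 CPM. Since each transcript was counted once from its 3′ end, these levels can be compared between genes without a correction for length.

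Markers that the rule did not use were present at high levels too, so the label of mast cell held in these data. CTSG, the gene for cathepsin G, was at 7211 CPM (6848 to 7589) in reaction 1 and 5044 CPM (4848 to 5246) in reaction 2, against 13.97 and 2.95 CPM in the other cells. CMA1, the chymase gene, reached 732 CPM (619 to 859) and 591 CPM (525 to 663), against 0.981 and 0.516 CPM. A CMA1 UMI was found in 69.7% of mast cells in reaction 1 (57.1 to 80.4) and 82.9% in reaction 2 (72.0 to 90.8), with median depths of 2051.5 and 5557 UMIs. In T cells, which lack chymase, the shares were 0.391% and 0.0387%, at median depths of 6541 and 7512 UMIs. With every cell thinned to 1000 UMIs, the mast cell shares were 50.6% and 39.9% and those of T cells 0.234% and 0.0187%. The lesser tryptases were scarce, TPSG1 at 24.4 and 20.2 CPM and TPSD1 with no UMI in reaction 1 and 2 UMIs (4.04 CPM) in reaction 2. GZMB, granzyme B, stood below the other cells at 9.76 and 54.5 CPM, against 272 and 190 CPM.

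For a ratio to the rest of the tumor's immune cells, the log2 ratio of mast cells to all other kept cells was taken within each of the 6 mice that held at least 10 mast cells. These were untreated mice 4 and 7 and maraviroc mice 1, 3, 4 and 5. Because the members were chosen from the same transcripts, the ratios carry no test. Genes count as measured, or as having enough UMIs, with at least 20 UMIs over all members, whatever their hashtag. Of 6337 such genes, 15.0% were above the other cells in all 6 mice and 13.8% below in all 6. The median log2 ratio over all these genes was -0.02.

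Genes outside the rule with at least 50 UMIs per reaction, counted over all members whatever their hashtag, were ranked by this ratio. The highest were CTSG, with a median log2 ratio of 12.18 (lowest mouse 8.05, highest 14.43), and CMA1, with 11.91 (8.23 to 14.72). Both were granule proteases. They were followed by CDK15, a cyclin-dependent kinase (10.90), NTM, the cell adhesion protein neurotrimin (9.88), PLA2G2A, a secreted phospholipase (9.87), and PRG2, the major basic protein of eosinophil granules (9.68). GATA2, a transcription factor of mast cells and their progenitors, had a ratio of 9.49 and KRT1, a keratin, 9.39. GCSAML (9.29), the cation exchanger SLC24A3 (9.08) and SLC18A2 (8.92), the transporter that loads histamine into granules, came next. The remaining genes of the top 20 were SIGLEC6, MEIS2, PDE3A, ENPP3, HPGD, PTPRB, IL1RL1, ALDH1A1 and BACE2, whose medians lay between 8.73 and 6.68. Every one of these 20 genes was above the other cells in all 6 mice, as the rule of naming them favored. For CTSG the ratios of the 3 mice in reaction 1 (8.05 to 10.74) lay below those of the 3 mice in reaction 2 (13.61 to 14.43), and the CTSG level of the other cells was higher in reaction 1.

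**Figure D1:**
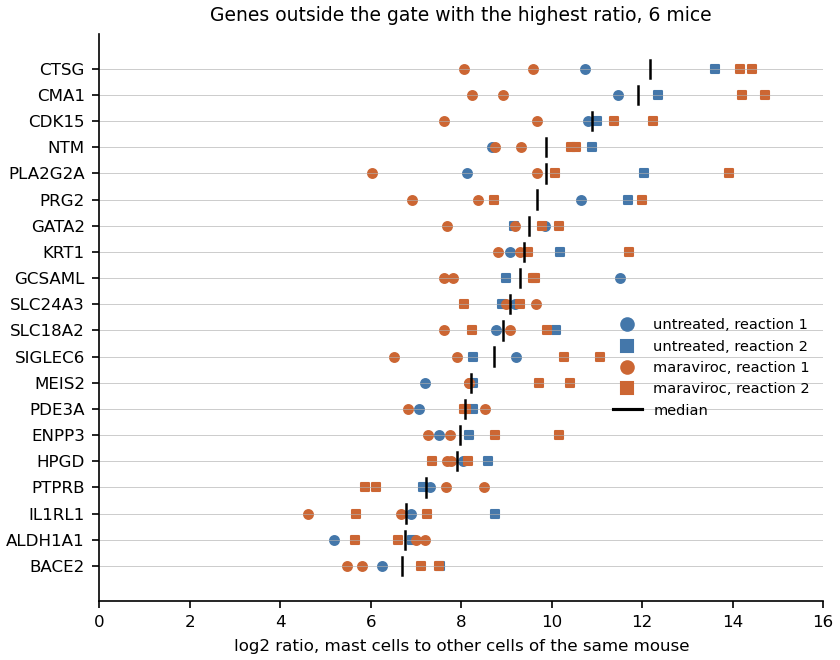
The log2 ratio of mast cells to all other kept cells of the same mouse (horizontal axis) is plotted for 20 genes outside the rule. They have the highest medians among genes with at least 50 UMIs per reaction, counted over all members. Each mouse has 1 symbol, with circles for reaction 1, squares for reaction 2 and a bar at the median. All symbols lie above 0, and CTSG, at the top, runs from 8.05 to 14.43.

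The makeup of granule transcripts outside the mast cells was read for 4 genes, of which the rule used TPSAB1, TPSB2 and CPA3. Among the UMIs of TPSAB1, TPSB2, CPA3 and CTSG, mast cells of reaction 1 held 33.3%, 10.0%, 25.3% and 31.4% (6933 UMIs, all 129 members). The other cells of that reaction held 33.9%, 9.54%, 22.3% and 34.3% (2285 UMIs). In reaction 2 mast cells held 31.8%, 9.03%, 31.1% and 28.1% (8896 UMIs) and the other cells 31.9%, 7.77%, 34.0% and 26.4% (1171 UMIs). Single groups among the other cells varied more, CTSG being 35.01% in T cells (854 UMIs) and 42.4% in macrophages with C1Q transcripts (337 UMIs) of reaction 1, and 41.2% (153 UMIs) and 20.4% (489 UMIs) of reaction 2. The other cells include cells with protease UMIs that failed the rule, and no source of their granule transcripts was tested.

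In the list of storage and histamine genes, 6 of 9 genes with enough UMIs were above the other cells in all 6 mice and none below, with a median log2 ratio of 1.86. SLC18A2 stood at 659 and 732 CPM, against 1.84 and 1.88 CPM in the other cells. HS6ST1 and NDST2, which sulfate heparin chains, had median log2 ratios of 4.90 and 2.89. CD63, a granule membrane protein that reaches the surface on degranulation, had a ratio of 1.86. SRGN, serglycin, the core protein that carries heparin, was abundant in mast cells (2854 and 2819 CPM) but also in the other cells (1991 and 2069 CPM), for a median log2 ratio of 0.57.

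Among receptors, 13 of 19 measured genes were above the other cells in all 6 mice and 2 below, with a median log2 ratio of 3.14. IL1RL1, the receptor for IL-33, was at 137 and 151 CPM, against 1.64 and 1.58 CPM. SIGLEC6 and SIGLEC8, inhibitory receptors that bind sialic acid, reached 195 and 309 CPM and 58.5 and 40.4 CPM. IL18R1, the IL-18 receptor, had 244 and 488 CPM, and P2RX1, an ATP-gated channel, 219.6 and 274 CPM. MRGPRX2, the receptor for peptides and many drugs on skin mast cells, was scarce at 4.88 and 8.07 CPM. CSF2RA and C3AR1, receptors for GM-CSF and complement C3a, were below the other cells, with median log2 ratios of -2.18 and -1.47.

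The IgE receptor was read unevenly. MS4A2, its beta chain, and FCER1G, its gamma chain, at 1356 and 1400.3 CPM, were plentiful, and the other cells also held FCER1G (1028 and 781 CPM). FCER1A, the chain that binds IgE, reached only 107 CPM (67.3 to 162.5) and 82.7 CPM (59.4 to 112.2). These levels were uneven between mice. In reaction 1 untreated mast cells had 209 CPM, with 11 of 17 UMIs from untreated mouse 3, and maraviroc mast cells 40.5 CPM. In reaction 2 untreated mast cells had 27.4 CPM and maraviroc mast cells 106 CPM, with 28 of 37 UMIs from maraviroc mouse 5. A FCER1A UMI was seen in 22.7% and 32.9% of mast cells and in 0.235% and 0.116% of T cells, and after thinning in 10.7% and 11.2% against 0.0497% and 0.0147%.

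Of 15 measured genes of IgE receptor signaling, 5 were above the other cells in all 6 mice and 4 below, with a median log2 ratio of 0.34. Those above were RGS13 (6.38), a brake on G protein signaling, the adaptors GRAP2 (3.75) and LAT (1.89), the kinase BTK (3.09) and the exchange factor VAV1 (0.85). Those below were the kinases LYN (-1.09) and FYN (-1.30), the lipid phosphatase INPP5D (-1.48) and the calcium sensor STIM1 (-0.38). BTK stood at 376 and 397 CPM, against 41.5 and 48.0 CPM in the other cells.

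A gene of lipid mediators was among the most abundant transcripts of the mast cells. HPGD, the enzyme that inactivates prostaglandins, was at 8334 CPM (7943 to 8738) and 11271 CPM (10977 to 11570), against 41.9 and 53.5 CPM in the other cells. With mitochondrial and ribosomal protein genes and MALAT1 set aside, it ranked 1 in reaction 2 and 5 in reaction 1, behind B2M, FTH1, FTL and TPSAB1. An HPGD UMI was found in 100% of mast cells in both reactions, and in 27.9% and 33.6% of T cells, where HPGD was at 104 and 134 CPM. After thinning, the shares were 98.8% and 98.4% of mast cells and 8.11% and 10.3% of T cells.

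In the whole list of lipid mediators, 6 of 10 measured genes were above the other cells in all 6 mice and 1 below, with a median log2 ratio of 1.30. HPGDS, which makes prostaglandin D2, reached 1044 and 1362 CPM, against 67.4 and 47.0 CPM. LTC4S, which makes leukotriene C4, reached 917 and 599 CPM, against 12.1 and 7.41 CPM. PTGS2, the inducible cyclooxygenase, had a median log2 ratio of 1.46, ALOX5AP of 1.14 and ALOX5 of 1.04. The 1 gene below was PTGES3 (-0.24).

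**Figure D2:**
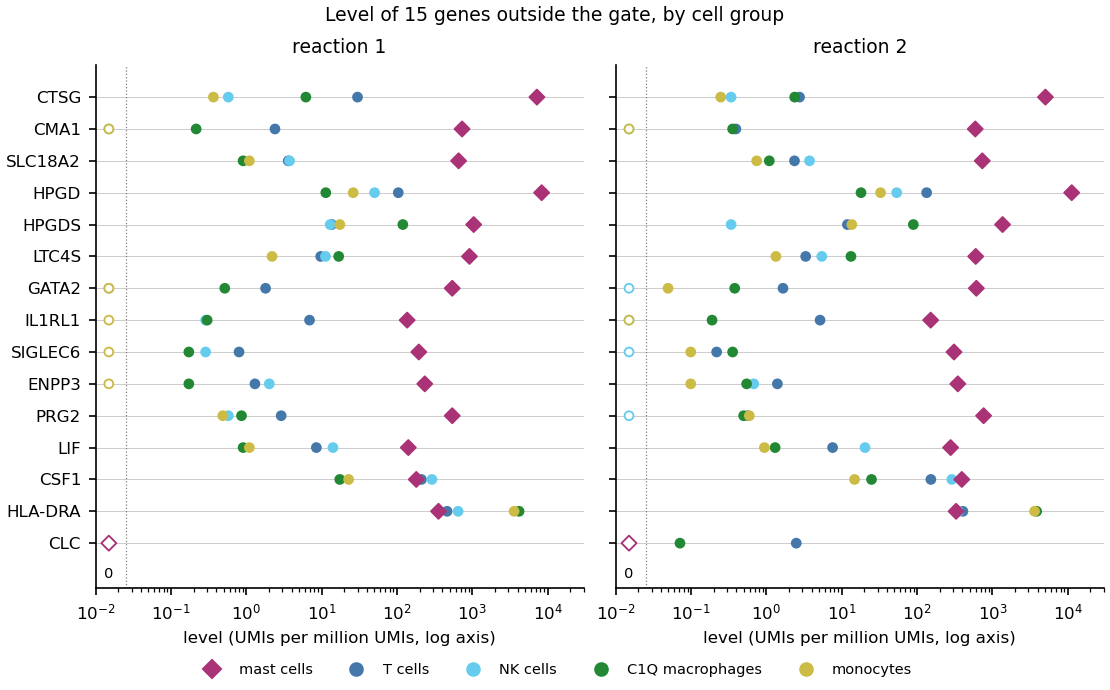
Level of 15 genes outside the rule in mast cells with a clear hashtag (diamonds) and in 4 other groups of cells (circles), in CPM on a log axis, with reaction 1 on the left and reaction 2 on the right, and open symbols left of the dotted line for groups with no UMI. HPGD reaches 8334 and 11271 CPM in mast cells, while CLC lies at 0 and HLA-DRA lies below its level in macrophages and monocytes.

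Transcription factors of the lineage were split. GATA2 was at 542 and 611 CPM, against 1.32 and 0.876 CPM in the other cells, and GATA1 at 19.5 and 24.2 CPM. MITF, a regulator of KIT and of granule genes, was at 415 and 537 CPM with a median log2 ratio of 1.52. TAL1 (9.02), MYB (2.84) and BHLHE40 (0.79) completed the 5 of 12 measured factors above the other cells in all 6 mice. RUNX1 (-0.85), SPI1 (-1.26) and IRF8 (-2.13), the last of these a factor of monocytes and dendritic cells, were below in all 6.

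The cytokine list held few mast cell transcripts. Of its 19 genes 12 had enough UMIs, of which 3 were above the other cells in all 6 mice and 3 below, and 5 had no UMI. IL13, a type 2 cytokine, was at 48.8 CPM (23.4 to 89.7) and 105 CPM (78.4 to 138), against 2.67 and 1.28 CPM, whereas IL4, IL5 and IL9 had no UMI in any mast cell. IL13 was found in 10.6% and 14.3% of mast cells and in 1.252% and 1.2002% of T cells, and after thinning in 5.87% and 5.70% against 0.448% and 0.298%. IL13 was also uneven between cells. In maraviroc mouse 4, 18 of its 20 UMIs were in 1 cell.

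LIF, a cytokine of the IL-6 family, was at 141 and 278 CPM, against 3.67 and 3.57 CPM in the other cells, and was seen in 18 of 66 (27.3%) and 42 of 70 mast cells and 4.69% and 4.53% of T cells (thinned 10.6% and 21.1% against 0.721% and 0.624%). CSF1, the macrophage growth factor, was at 181 and 391 CPM, against 83.9 and 62.2 CPM. T cells had 211 and 152 CPM of CSF1, and thinned shares of 16.2% and 12.4% against 15.9% and 30.97% in mast cells. AREG, IL1B and HBEGF were below the other cells in all 6 mice.

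Of 9 measured chemokines only CCL4, which draws monocytes and lymphocytes, was above the other cells in all 6 mice, at 2283 and 2807 CPM against 846 and 528 CPM. CCL3, CCL5 and CXCL10, which draw monocytes or T cells, were below, with median log2 ratios of -2.89, -3.80 and -5.03. CCL2, which draws monocytes, was at 385 and 569 CPM, against 660.2 and 576 CPM in the other cells.

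Basophils share several markers with mast cells, so their list was read as well. Of its 9 genes, 6 had enough UMIs, 5 of them above the other cells in all 6 mice and IL3RA below (-2.31). PRG2 was at 542 CPM (446 to 652) and 763 CPM (688 to 844), ENPP3, the surface enzyme CD203c, at 234 and 347 CPM, and MS4A3 at 43.9 and 58.5 CPM. CLC, the Charcot-Leyden crystal protein of basophils and eosinophils, had no UMI in any mast cell, and CCR3 had 4.88 and 0 CPM. Eosinophil genes EPX, PRG3, ALOX15 and RNASE3 had none, SIGLEC8 being the 1 gene of that list with enough UMIs. A PRG2 UMI was found in 48.5% and 55.7% of mast cells and 0.548% and 0.232% of T cells (thinned 34.0% and 24.4% against 0.293% and 0.0323%). Of 8 genes listed for earlier progenitors, 6 had no UMI in any mast cell, CD34, MPO and ELANE among them. The 2 with enough UMIs, CTSG among them, were above the other cells in all 6 mice (median log2 ratio 7.51).

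Lists of general immune programs were read against all other kept cells. Of 11 antigen presentation genes, 7 were below the other cells in all 6 mice and B2M (0.63) and HLA-C (0.31) above, with a median log2 ratio of -2.63. HLA-DRA was at 356 and 329 CPM, against 2989 and 2826 CPM, and CIITA, the class II activator, had a ratio of -1.47. Single cells carried much of the HLA-DRA level in some mice, with 54 of 56 UMIs in 1 cell of untreated mouse 7, 17 of 17 in untreated mouse 6 and 24 of 26 in maraviroc mouse 6. In reaction 1 the pooled HLA-DRA level was 85.9 CPM in untreated and 535 CPM in maraviroc mast cells, and in reaction 2 it was 507 and 255 CPM. These levels pool cells over mice and carry no test. Of the 66 maraviroc UMIs in reaction 1, 38 came from maraviroc mouse 3 and 26 from maraviroc mouse 1. In maraviroc mouse 1, 11 of the 26 were in a cell with 212 SPP1 UMIs. Of 12 interferon-induced genes 5 were below and only IFI6 (0.60) was above. Of 12 immediate early genes 5 were above and none below, EGR1 with 2.73, FOSB with 1.89, NR4A1 with 1.53, IER2 with 1.40 and JUND with 0.73.

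In lipid handling, ACSL4, which activates arachidonic acid, was the 1 of 11 measured genes above the other cells in all 6 mice, at 1215 and 1622 CPM against 135 and 173 CPM. CD36, FABP5 and ACSL1, which take up, carry and activate fatty acids, were below with -2.46, -1.95 and -2.80. GPX4 (0.98), which repairs lipid peroxides, and FTH1 (0.40), the ferritin heavy chain, were above, and TFRC (-1.25) and SLC40A1 (-3.28), the iron importer and exporter, below, among 7 measured genes of oxidative stress and iron. Of 6 measured hypoxia genes 3 were below, LDHA, PGK1 and ENO1, and none above.

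Markers of other cell types were low, which the limits on T cell and C1Q UMIs favored. Of the measured genes, 7 of 8 macrophage, 6 of 6 monocyte, 2 of 3 T cell and 2 of 2 NK cell markers were below the other cells in all 6 mice. No dendritic cell marker had 20 UMIs, and the 1 measured B cell marker was neither above nor below in all 6. Of the tumor cell markers, KRT19, a keratin, was above (2.47) at 166 and 174 CPM, while EPCAM had no UMI and KRT8 and KRT18 were at 2.02 CPM or less.

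The mast cells differed among themselves in granule content. TPSAB1 made up a median of 1.03% of a cell's UMIs in reaction 1 (10th to 90th percentile 0.355 to 1.85) and 0.505% in reaction 2 (0.287 to 1.04). HPGD made up a median of 0.554% and 1.34%, with highest cells at 2.39% and 3.70%. Across cells, Spearman's rho of the CTSG share with the TPSAB1, TPSB2 and CPA3 share was 0.28 over 66 cells and 0.35 over 70, and that of HPGD -0.23 and -0.14. These are descriptions of cells that share libraries and a common denominator. Of 6 mitotic genes, at least 3 UMIs were found in 13 of 66 mast cells (19.7%) and in 9 of 70 (12.9%), against 19.1% and 16.9% of other cells. The median depth was 2051.5 and 5557 UMIs in the mast cells and 5823 and 10710 UMIs in the other cells, so that neither a difference nor a likeness in cycling can be read from these shares. None of the 9 measured proliferation genes was above or below the other cells in all 6 mice.

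**Figure D3:**
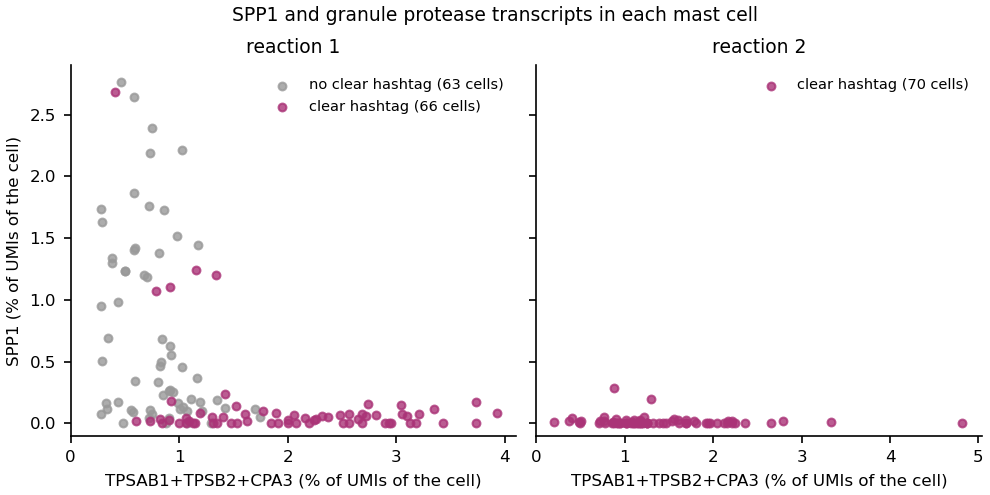
Each point is 1 mast cell, placed by the share of its UMIs from TPSAB1, TPSB2 and CPA3 (horizontal axis, %) and from SPP1 (vertical axis, %), for reaction 1 on the left and reaction 2 on the right. Cells without a clear hashtag (grey) reach 2.76% SPP1 at low protease shares, and reaction 1 cells with one reach 2.68%. No reaction 2 cell exceeds 0.289%.

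SPP1 separated a minority of cells. With a limit of 0.5% of a cell's UMIs, chosen after the values were seen, 28 of the 63 members without a clear hashtag and 5 of the 66 with one passed it, and 0 of 70 in reaction 2. All 5 came from maraviroc mouse 1, where they were 5 of 12 mast cells. The median protease share of cells was 0.805% without a clear hashtag, 2.002% with one and 1.18% in reaction 2.

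Whether maraviroc changed the number of mast cells was asked over mice. Among untreated mice the mast cell share of kept cells was 0.353%, 0.626%, 0.846% and 1.09% in mice 1 to 4 (reaction 1) and 0.239%, 0.280% and 1.40% in mice 5 to 7 (reaction 2). Among maraviroc mice it was 1.01%, 0.614% and 1.74% in mice 1 to 3 (reaction 1) and 1.04%, 1.83%, 0.357% and 0.438% in mice 4 to 7 (reaction 2). The groups overlapped over most of their range, and the counts behind the shares were 3 to 25 mast cells per mouse.

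The mean share of mast cells was 0.690% ± 0.442 (SD, n = 7) without treatment and 1.004% ± 0.594 (SD, n = 7) with maraviroc. The difference of 0.314 percentage points did not pass a two-sided exact permutation test over mice (p = 0.280, adjusted over the 3 comparisons of shares 0.600). Of the 7 maraviroc mice, 4 lay above the untreated median. Within reaction 1 the difference was 0.393 points (exact permutation p = 0.343) and within reaction 2 0.278 points (exact permutation p = 0.600). A change in the number of mast cells cannot be told apart from a change in the other sorted cells, since these are shares.

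**Figure D4:**
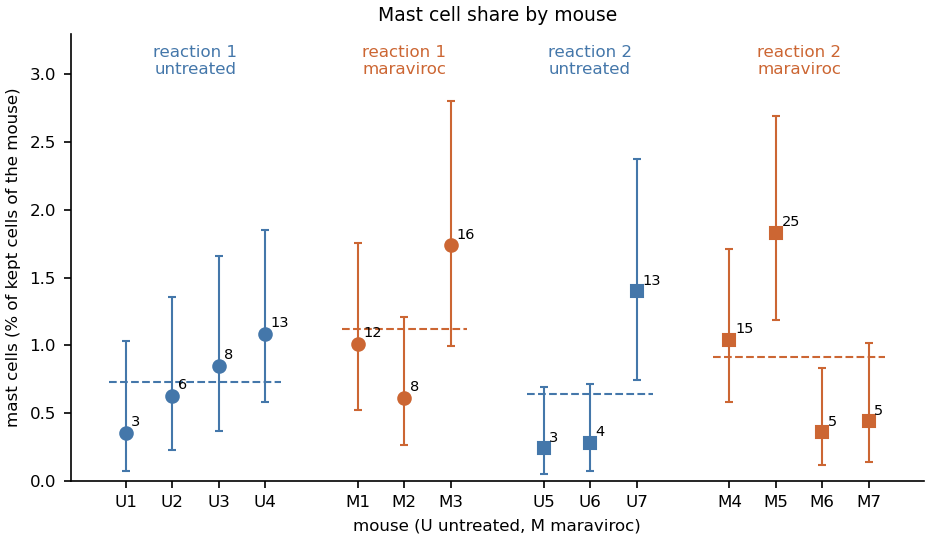
Mast cells as a percent of the kept cells of each mouse (vertical axis), with the number of mast cells beside each point, exact binomial 95% intervals as bars and the mean of each group within a reaction as a dashed line. The shares run from 0.239% to 1.40% in untreated mice and from 0.357% to 1.83% in maraviroc mice, and the groups overlap.

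Granule content by treatment could be compared in the 6 mice with at least 10 mast cells. The smallest p that 2 against 4 mice allow is 0.0667. TPSAB1, TPSB2 and CPA3 together made up 1.73% and 1.33% of mast cell UMIs in untreated mice 4 and 7, and 1.205%, 1.61%, 1.30% and 1.24% in maraviroc mice 1, 3, 4 and 5. The means of 1.53% and 1.34% differed by -0.189 points (exact permutation p = 0.400), with -0.323 points in reaction 1 and -0.0548 in reaction 2. Over all 14 mice, each with at least 3 mast cells, the difference was -0.282 points (exact permutation p = 0.372).

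CTSG and CMA1 made up 40.0% and 27.8% of the UMIs of the 5 granule proteases in untreated mice 4 and 7, and 43.9%, 29.7%, 29.2% and 37.4% in maraviroc mice 1, 3, 4 and 5. The groups overlapped, with a mean difference of 1.15 points (exact permutation p = 0.867). The difference was -3.22 points in reaction 1 and 5.53 in reaction 2, and over all 14 mice with at least 3 mast cells it was -1.82 points (exact permutation p = 0.731).

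**Figure D5:**
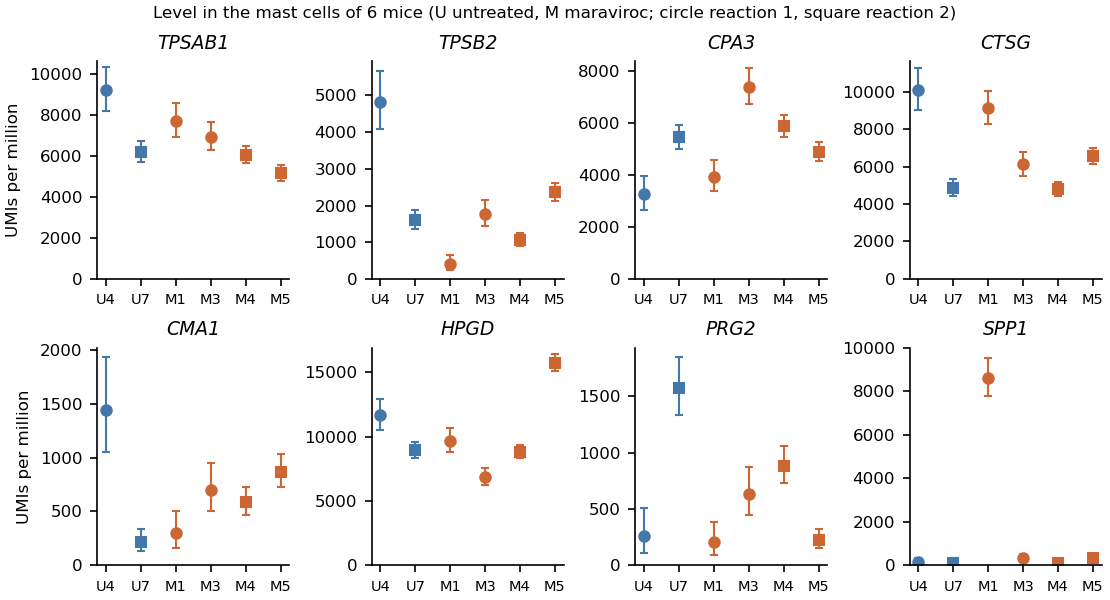
Level of 8 genes in the mast cells of the 6 mice with at least 10 mast cells (vertical axes, CPM; blue for untreated, orange for maraviroc), with exact Poisson 95% intervals as bars. TPSB2 runs from 408 to 4823 CPM and SPP1 is at 8620 CPM in maraviroc mouse 1 and at 317 CPM or less in the other mice.

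Single genes varied widely between mice of the same treatment. TPSAB1 was at 9196 and 6197 CPM in untreated mice 4 and 7 and at 7690.0, 6929, 6057 and 5147 CPM in maraviroc mice 1, 3, 4 and 5. TPSB2 was at 4823 and 1604 CPM against 408, 1769.9, 1066 and 2356 CPM, a wide range in a gene that shares reads with TPSAB1. CMA1 was at 1447 and 220.2 CPM against 295, 701, 585 and 868 CPM. In each gene the untreated and maraviroc mice overlapped.

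HPGD was at 11672 and 8923 CPM in the untreated mice and at 9686, 6879, 8819 and 15757 CPM in the maraviroc mice. PRG2 was at 257 and 1573 CPM against 204, 634, 881 and 227 CPM, and 109 of the 150 PRG2 UMIs of untreated mouse 7 were in 1 cell. SPP1 was at 129 and 83.9 CPM against 8620, 317, 88.9 and 317 CPM. In maraviroc mouse 1, 212 of its 380 UMIs were in 1 cell, and without that cell the level was 4645 CPM. FTL, the ferritin light chain, was also highest there (16900 CPM, against 4547 to 7731 CPM in the other 5 mice), and so was HMOX1, heme oxygenase 1, at 998 CPM against 0 to 62.0 CPM.

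Across all genes, counts summed over the mast cells of each of the 6 mice were compared by edgeR's quasi-likelihood test with the reaction as a covariate. Of 1767 genes tested, 0 (0%) passed an adjusted p of 0.05 (Benjamini-Hochberg), the lowest adjusted p being 0.992. At an unadjusted p under 0.05, 29 genes were higher with maraviroc (1.64%) and 9 lower (0.509%), 38 in all, and DESeq2 gave 0 adjusted and 17 unadjusted calls. A test of whether the treatment difference itself differed between the reactions gave 0 adjusted calls by edgeR, with 111 unadjusted, and 0 adjusted by DESeq2, with 21 unadjusted. With the 11 mice that held at least 5 mast cells (4 untreated, 7 maraviroc), 675 genes were tested, 0 (0%) passed, and 22 (3.26%) were higher and 5 (0.741%) lower at an unadjusted p under 0.05.

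The genes with the lowest p, none of which passed the adjustment, are given with their values. PLIN2, the lipid droplet coat protein, was at 322 and 241 CPM in untreated mice 4 and 7 and at 1157, 584, 489 and 655 CPM in maraviroc mice 1, 3, 4 and 5. These 2 groups of mice did not overlap, which naming genes by their lowest p favored. The log2 difference was 1.32 ± 0.41 (SE, edgeR, unadjusted p = 0.00878, adjusted p = 0.992). In maraviroc mouse 1, 30 of the 51 PLIN2 UMIs came from the cell that also held most SPP1, and the level was 581 CPM without it. In the 8 mice with fewer mast cells, PLIN2 ran from 155 to 1112 CPM in untreated mice and from 308 to 773 CPM in maraviroc mice, so that over all 14 mice the groups overlapped.

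The other genes higher at the lowest p were HERC1 (log2 difference 1.07 ± 0.32, edgeR unadjusted p = 0.00714), APLP2 (1.58 ± 0.49), TAB2, KDM6B, ABCA1, ELL2, RAP1B, INTS6 and CHD2, all with an adjusted p of 0.992 in edgeR. ABCA1, the cholesterol exporter, was at 64.3 and 62.9 CPM against 318, 100.2, 170.3 and 248 CPM. Those lower were KHDRBS1 (-1.097 ± 0.41), GRAP2 (-1.0003 ± 0.37), HSPD1 (-1.32 ± 0.50), ST8SIA6, SPRED1, HSP90AA1, ARHGEF3, BTBD7, GBE1 and LST1, with the same adjusted p. GRAP2 was at 547 and 933 CPM against 159, 334, 607 and 379 CPM, and the groups overlapped.

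By list, and against 897 of 1767 genes with a positive log2 difference and a median of 0.01, the granule proteases had 5 genes tested, 1 positive and 0 with an unadjusted p under 0.05, with a median of -0.11. TPSAB1 had -0.24 ± 0.22 (edgeR, unadjusted p = 0.297), CTSG -0.10 ± 0.28 and CPA3 0.35 ± 0.30 (unadjusted p = 0.270). TPSB2 had -1.12 ± 0.60 (edgeR, unadjusted p = 0.0917), with -2.10 in reaction 1 and 0.08 in reaction 2. CMA1 had -0.11 ± 0.67, with -1.48 in reaction 1 and 1.70 in reaction 2. Of 8 lipid mediator genes tested 0 were positive and 0 had an unadjusted p under 0.05, with a median of -0.22. Of 12 receptors 8 were positive and 0 had an unadjusted p under 0.05, and of 12 IgE signaling genes 8 were positive and GRAP2 alone had such a p.

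In lipid handling 3 of 4 genes tested were positive, PLIN2 and ABCA1 having an unadjusted p under 0.05. Of 4 chemokines 3 were positive, among them CCL2 (1.34 ± 0.57, edgeR unadjusted p = 0.039, adjusted p = 0.992), at 386 and 199 CPM in the untreated mice and at 862, 284, 592 and 999 CPM in the maraviroc mice. SPP1 had a log2 difference of 3.20 ± 1.44 (edgeR unadjusted p = 0.0489, adjusted p = 0.992), with 5.14 in reaction 1, which holds maraviroc mouse 1, and 1.26 in reaction 2. Without maraviroc mouse 1 the SPP1 difference was 1.28. The CCL2 difference was 0.59 in reaction 1 and 1.97 in reaction 2, and it was 0.56 without untreated mouse 7 and 2.0 without untreated mouse 4. Each reaction by itself holds 1 untreated mouse against a pair of maraviroc mice. The part of macrophage RNA in that mouse's mast cells was not tested.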

How the data were processed

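Human CD45+ cells of 14 mice were read in 2 droplet 3′ single-cell reactions. The authors aligned the reads to GRCh38 with Cell Ranger 9.0.1 and deposited raw UMI counts of genes and 7 hashtags per reaction, unfiltered by cell type (the submitters' notes also name Seurat 5.1.0). No column of another series or of the authors' comparisons was used. Treatment was read from the hashtag names. The members and gene lists were chosen with earlier results of these data known.

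From the deposited counts, kept cells had more than 600 and up to 6000 genes and under 12.5% mitochondrial UMIs, and a hashtag was called at 60% of hashtag UMIs. Levels are CPM (counts of a gene per 1000000 UMIs) with exact Poisson intervals, and shares have exact binomial intervals (95%). T cells had at least 3 UMIs of the T cell genes. Cells were thinned to 1000 UMIs, and 3 mast cells of reaction 1 with a clear hashtag were too shallow, as were 7 and 4 T cells. Ratios used a prior count of 0.5. The mouse was the replicate. Shares were compared by two-sided exact permutation tests, and summed counts by edgeR 4.0.16 (TMM, filterByExpr, quasi-likelihood, reaction as covariate, Benjamini-Hochberg), with DESeq2 1.42.0 as an alternative, in R 4.3.3. The ratio, the permutation test and the edgeR fit were each tested on simulated data. Named genes were those of the lists, the 20 outside the rule with the highest median ratio among genes with at least 50 UMIs per reaction, and the 10 lowest p in each direction. The limits of 20 and 50 UMIs were counted over all members, whatever their hashtag. SPP1, FTL and other genes with 1 dominating cell were also read without that cell. Alternatives were other gates, hashtag limits and calls (HTODemux in Seurat 5.3.0), filters, each reaction by itself, other minimum numbers of mast cells and leaving out each mouse. Single values of a few list genes are not reported here, though the list counts include them.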

Additional observations from a re-analysis of the deposited data

How the results depend on the processing

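The mast cell share by treatment kept its direction and did not pass the threshold under all 24 alternatives tried, with 0.176 to 0.432 points when each mouse was left out. The protease share changed sign only without untreated mouse 4 (range over mice left out -0.391 to 0.0135 points). With 2 against 4 mice or fewer neither granule share could pass, so their p-values say nothing about stability. The CTSG and CMA1 share was negative with a top hashtag of at least 80% (-0.958 points), HTODemux (-2.90), reaction 1 by itself (-3.22), and at least 5 (-1.32) or 3 (-1.82) mast cells per mouse, and ran from -4.97 to 7.28 with each mouse left out (-4.97 without untreated mouse 7, -1.79 without maraviroc mouse 1).

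Adjusted calls of genes by treatment went from 0 to 12 with cells above 1000 genes, 7 in reaction 1 and 11 in reaction 2, each with 1 untreated against 2 maraviroc mice, and stayed at 0 with each mouse left out. Unadjusted calls, 38 as reported, were 74 with a top hashtag of at least 80%, 205 above 1000 genes, 17 by DESeq2, 210.0 with all genes with a count, 67 and 207 in reactions 1 and 2, 20 with at least 3 mast cells, 22 and 121 in reactions 1 and 2 with at least 5, and 16 to 155 with each mouse left out (155 without untreated mouse 7, 88 without untreated mouse 4, 87 without maraviroc mouse 3, 16 without maraviroc mouse 4). CPA3 turned negative above 1000 genes (-0.0512), in reaction 2 (-0.0504) and without untreated mouse 4 (-0.0170, against 0.811 without untreated mouse 7), and SPRED1 positive without untreated mouse 7 (0.157, against -1.54 without untreated mouse 4). SPP1 in reaction 1 (5.14) and CCL2 in reaction 2 (1.97) and above 1000 genes (2.03) passed with 1 untreated mouse in the fit, which is no support for a difference by treatment. The cause of these shifts was not tested.

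The limit of 3 mast cells per mouse, the fits of each reaction or without a reaction term at a limit of 5, the repeats of the ratios to other cells and the levels without single cells or without maraviroc mouse 1 were chosen after seeing the data. With 1 or 2 mice left in a group, the lone mouse is assumed to vary like the others. Mice with at least 20 mast cells could not be fitted, since only 1 mouse had them. Among genes with at least 50 UMIs per reaction, 15 to 19 of the top 20 stayed there under 7 other gates and filters. The median log2 ratios themselves ranged from 11.26 to 14.33 for CTSG, 11.12 to 14.26 for CMA1 and 8.70 to 11.72 for PRG2. For GATA2 they ran from 9.08 to 11.63, for SLC18A2 from 8.49 to 9.93 and for HPGD from 7.68 to 8.33. No paired analysis was possible because the mouse numbers were given here only as names, and nothing ties a number to a litter, donor or batch. Depth limits the levels of scarce genes, since 3 UMIs came to 14.6 CPM in reaction 1 cells with a clear hashtag and 6.05 CPM in reaction 2.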
